A study of Mus musculus with 27 samples.

Results

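Ribosome biogenesis factors are the nucleolar and nuclear proteins that transcribe ribosomal RNA, cut and modify the precursor, and assemble it with ribosomal proteins into the small and the large subunit. The factors described here are 42 genes, taken from a list of symbols by matching the gene name in the deposited table of 54532 genes. Each symbol matched 1 row, and all 42 passed the filter on low values (FPKM, fragments per kilobase of transcript, scaled to library size, of at least 1 in at least 4 libraries), as did 12376 genes in all. They were placed in 7 role groups: RNA polymerase I transcription, box C/D ribonucleoprotein, box H/ACA ribonucleoprotein, multifunctional nucleolar proteins, the processome of the small subunit, late assembly of the small (40S) subunit, and assembly of the large (60S) subunit.

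RNA was sequenced from the liver in 27 libraries. The mice were wild-type C57/BL6J, an inbred laboratory strain. The groups were a sham operation (n = 5, with no time in the label), resection of 70% of the liver sampled after 24 h (PHx24, n = 7) or 48 h (PHx48, n = 7), and the same resections in mice given etomoxir (PHx24_ETO, n = 4, and PHx48_ETO, n = 4). Etomoxir inhibits carnitine palmitoyltransferase 1, which passes long-chain fatty acids to mitochondria for oxidation. It was injected intraperitoneally at 12.5 mg/kg, with the first dose 4 h ahead of surgery and a second dose 24 h after surgery in the mice of PHx48_ETO. The labels give no age or sex, name no vehicle for the mice without etomoxir, include no sham mice with etomoxir, and do not say that each library is a separate animal. The p-values therefore measure the spread between these libraries.

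In a quiescent liver, cell growth and ribosome production are low. Partial hepatectomy makes the hepatocytes that stay in place grow and enter the cell cycle, and new ribosomes are needed for that growth. RNA polymerase I makes 1 long precursor, which guide ribonucleoproteins methylate (box C/D) or pseudouridylate (box H/ACA). The processome folds and cuts the part that becomes the small subunit, and a separate set of factors matures the large subunit. Many genes of this machinery are known targets of the transcription factor MYC, which binds the sequence CACGTG, called an E-box.

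Total counts per library ranged from 14903757 to 18446372. The mean count of a member over the libraries ran from 166.6 to 3385.6, and the lowest count of any member in any library was 70. All 11 hepatocyte markers that were in the table passed the filter, and their summed FPKM ran from 29096.9 in PHx24 4 to 73191.0 in sham 5. All 10 Kupffer cell and macrophage markers and 11 of 12 skeletal muscle markers also passed, so passing does not test the liver label. Transcripts of skeletal muscle or pancreas stood out in sham 1, sham 2, PHx24 1 and PHx48 3, so the counts of changed members are also given without these 4 libraries. The second library of PHx24_ETO stood apart, over all genes as well as over the members (on the second principal component of all tested genes it was at 0.57, with 0.33 for the next highest library), and is treated with the etomoxir results. In whole tissue, a change in the share of cells of a type and a change in RNA per cell cannot be told apart.

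At 24 h after resection, 30 of the 42 members were higher than in sham and none was lower (edgeR quasi-likelihood test, adjusted p under 0.05). Among all genes tested, 19.1% were called higher and 15.8% lower. The median log2 fold change was 0.43 over the members and 0.01 over all genes, and 41 of the 42 had a positive value. The effects were moderate. Only 4 members were called with a rise of at least 2-fold: Nop56, Nop58, Rrp12 and Rrp1b. Every PHx24 library lay above every sham library for 18 members, a separation found in 9.41% of all genes. Without the 4 libraries with other tissue, 21 members were called, all of them among the 30, against 14.9% of all genes called higher, and 41 stayed positive. The members lost were Polr1b, Dkc1, Heatr1, Wdr75, Ltv1, Pes1, Wdr12, Nip7 and Noc3l.

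**Figure D1:**
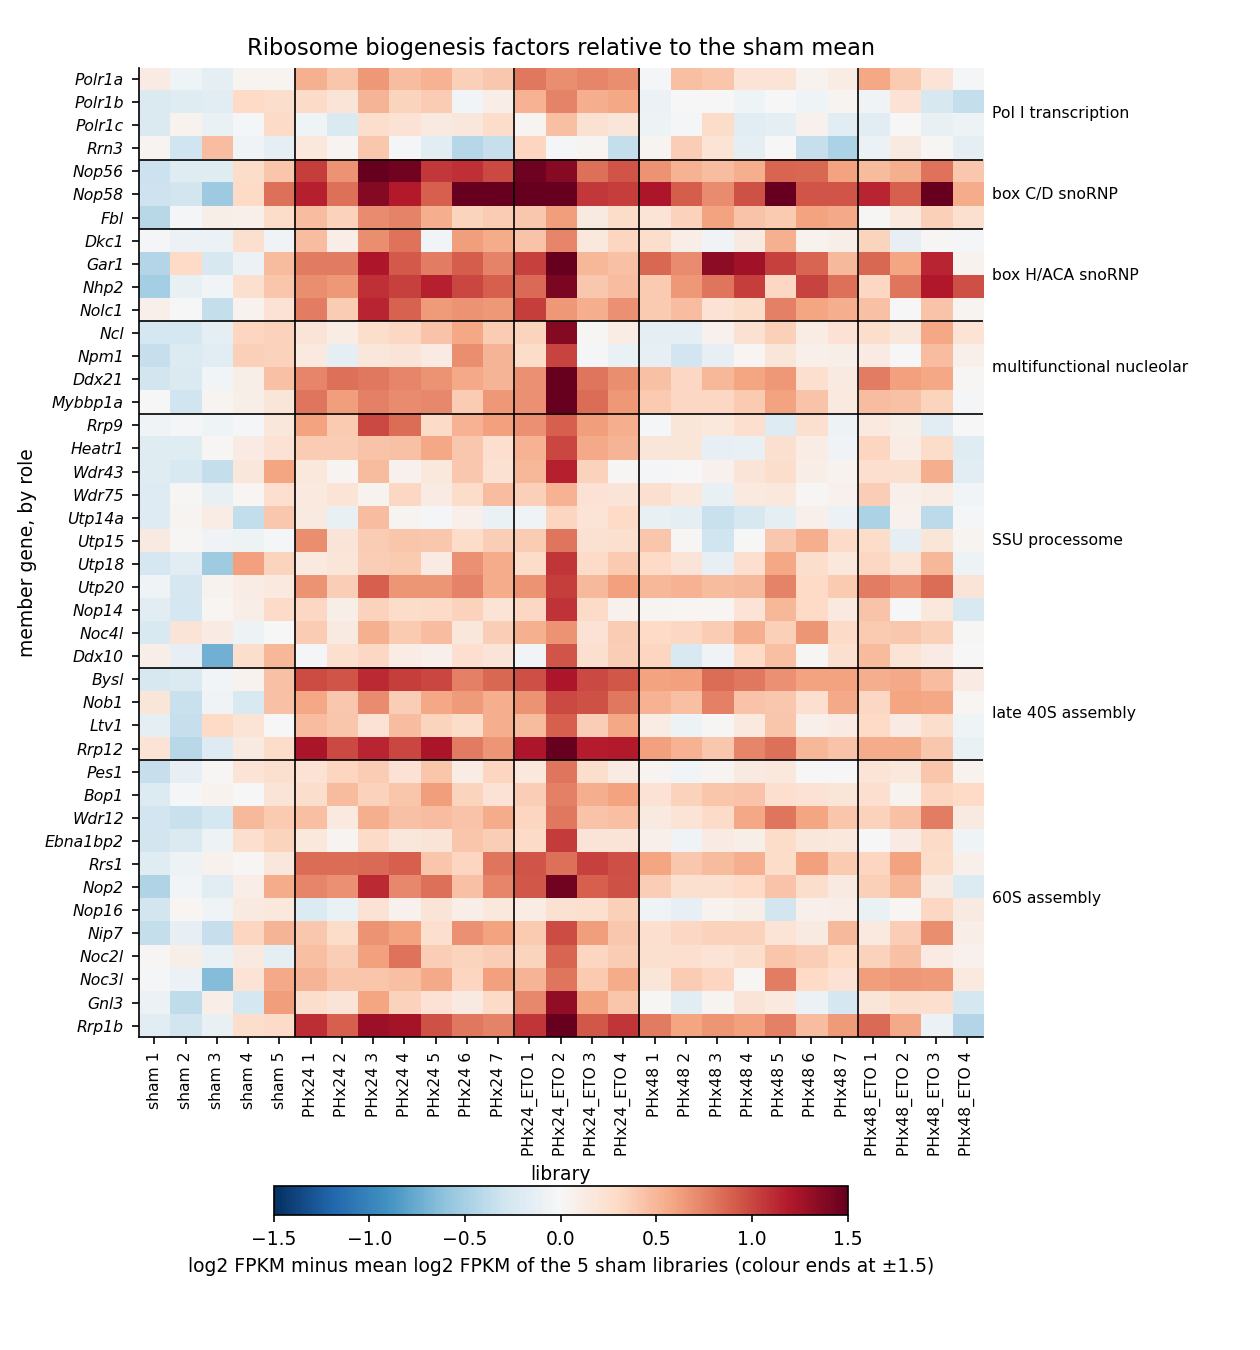
Log2 FPKM of the 42 members (rows, by role) in the 27 libraries (columns, by group), each value relative to the gene's mean log2 FPKM over the 5 sham libraries; red is above and blue below that mean. The box C/D genes Nop56 and Nop58, Bysl, Rrp12 and Rrp1b are red in all 7 PHx24 libraries and paler in PHx48, Rrn3 shows no such pattern, and PHx24_ETO 2 has the highest value for 31 members.

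How far the level moved differed by role. All members of the box C/D group (3 of 3), the box H/ACA group (4 of 4) and late 40S assembly (4 of 4) were called higher at 24 h, with median log2 fold changes of 1.15, 0.81 and 0.75. In 60S assembly 9 of 12 were called (median 0.43), in the processome 6 of 11 (0.33), in the nucleolar group 2 of 4 (0.51) and in polymerase I transcription 2 of 4 (0.20). These groups are small and differences between them were not tested.

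Promoters were looked at for the E-box and for 5 other short motifs, as a description with no test. Reference sequences from RefSeq (GRCm38.p6), from 250 bases before to 50 bases after the annotated start, were matched by symbol for 37 of the 42 members and not for Fbl, Rrp12, Rrs1, Bop1 and Npm1. The palindrome CACGTG was in 8 of 37 (21.6%) and in 7.15% of all 32851 promoters of the table. It was in a promoter of 12% of the 8722 tested genes with an entry. Of these 8 genes, 5 were called higher at 24 h (Ltv1, Mybbp1a, Nop2, Pes1 and Utp20) and 3 were not (Rrn3, Utp18 and Wdr43), while 21 of the 29 without it were called. The 30-base stretches around it, on the strand of the gene, show how little the surrounding letters share. The capitals mark the palindrome.
Nop2, chr6:125131811-125131840 (+): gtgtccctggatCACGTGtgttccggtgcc
Utp20, chr10:88826765-88826794 (-): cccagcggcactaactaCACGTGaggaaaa
Mybbp1a, chr11:72441347-72441376 (+): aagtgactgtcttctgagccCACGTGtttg
Pes1, chr11:3963965-3963994 (+): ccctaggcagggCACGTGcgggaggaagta
Ltv1, chr10:13193092-13193121 (-): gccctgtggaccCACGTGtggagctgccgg
Wdr43, chr17:71616220-71616249 (+): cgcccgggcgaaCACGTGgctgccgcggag
Utp18, chr11:93885769-93885798 (-): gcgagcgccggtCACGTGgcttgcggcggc
Rrn3, first match, chr16:13780472-13780501 (+): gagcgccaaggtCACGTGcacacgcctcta
Rrn3, second match, chr16:13780639-13780668 (+): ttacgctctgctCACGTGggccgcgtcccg
Rrn3, which was not called, was the only one of the 37 with 2 copies. A match shows that the letters are present and says nothing of binding in these livers.

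The other letters searched on both strands were CACGCG, in 13 of 37 members (35.1%) and 9.27% of all promoters, CCGGAAG, an ETS-type sequence, in 14 (37.8%) and 8.86%, CCAAT in 14 (37.8%) and 37.4%, TATAAA in 2 (5.41%, Dkc1 and Pes1) and 13.6%, and CTCGCGAG in 0 and 0.919%. Of the 12376 genes tested, 8722 had an entry in the table, matched by symbol as the members were. Among those 8722 the shares were 12% for CACGTG, 19.4% for CACGCG, 20.8% for CCGGAAG, 43.3% for CCAAT and 2.25% for CTCGCGAG. These were higher than over all promoters, while the share for TATAAA was lower, at 9.21%. A member or tested gene counted if any of its entries held the motif, whereas the shares of all promoters are per entry. The 250 bases before the start are shown for Nop2, called at 24 h but not at 48 h, and for Nhp2, the most abundant member and called at both times. Capitals mark CACGTG and CCGGAAG in Nop2, and CCGGAAG and CCAAT or its reverse complement ATTGG in Nhp2, where 2 of the 3 CCAAT matches overlap.
Nop2, chr6:125131633-125131882 (+): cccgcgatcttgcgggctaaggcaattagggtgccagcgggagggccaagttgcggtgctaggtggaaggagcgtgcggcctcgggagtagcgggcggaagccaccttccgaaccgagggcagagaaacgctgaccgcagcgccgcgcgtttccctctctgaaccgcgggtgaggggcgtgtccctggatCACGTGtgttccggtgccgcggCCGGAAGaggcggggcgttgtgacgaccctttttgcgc
Nhp2, chr11:51619523-51619772 (+): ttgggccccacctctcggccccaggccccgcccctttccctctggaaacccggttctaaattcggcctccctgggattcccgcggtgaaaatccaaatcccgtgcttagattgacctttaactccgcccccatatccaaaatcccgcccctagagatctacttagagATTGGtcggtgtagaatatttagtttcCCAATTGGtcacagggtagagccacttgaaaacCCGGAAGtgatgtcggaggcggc
In Nop2 the CACGTG begins 60 bases before the start and CCGGAAG 38 bases before it. In Nhp2, CCGGAAG begins 23 bases before the start, and no CACGTG lies in the window.

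RNA polymerase I transcription moved least. Polr1a, the largest subunit of the polymerase (chr6:71909053-71984935, GRCm38), stood at 2.06, 1.81, 1.72, 1.94 and 1.95 FPKM in sham 1 to 5. In PHx24 it ran from 2.42 to 2.96 (median 2.61), which did not overlap sham, a difference of 0.49 on the log2 scale (SE 0.0974, adjusted p = 0.000309 by edgeR). At 48 h it ran from 1.87 to 2.58 (median 2.18) and overlapped sham, with a log2 fold change of 0.23 that missed the threshold (adjusted p = 0.0699 by edgeR). Polr1b, the second-largest subunit, was called at 24 h with a smaller value of 0.27 (SE 0.104, adjusted p = 0.0475 by edgeR), and its groups overlapped.

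The other genes of this role were not called at either time. Polr1c, a subunit shared with RNA polymerase III and the most abundant of the role, read 8.12, 9.78, 8.81, 9.31 and 11.5 FPKM in sham and 8.15 to 11.4 (median 10.6) in PHx24. The sham values span the PHx24 values, and the 95% interval of its log2 fold change at 24 h was -0.06 to 0.32. Rrn3, the initiation factor that brings polymerase I to the ribosomal RNA promoter, read 5.51, 4.34, 7.40, 5.16 and 4.82 FPKM in sham. In PHx24 it ran from 3.98 to 7.07 (median 5.29) and in PHx48 from 3.86 to 6.93 (median 5.38). Its log2 fold change was -0.03 at both times, with an interval of -0.34 to 0.28, so a change of the size seen for Nop56 is outside the interval while a small one is not.

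The box C/D group held the largest changes. Nop58 and Nop56 are the paired core proteins of the box C/D particle, and Fbl (fibrillarin) is its methyltransferase. Nop58 (chr1:59684971-59719044) stood at 1.72, 1.76, 1.46, 2.61 and 3.76 FPKM in sham, so that 2 of 5 sham libraries were clearly above the others. PHx24 ran from 3.76 to 6.61 (median 4.83). The groups met at 3.76 to the digits shown, and 6 of 7 PHx24 libraries lay above all of sham. The log2 fold change was 1.19 (SE 0.207, adjusted p = 7.83e-05 by edgeR). At 48 h Nop58 ran from 3.48 to 5.97 (median 4.09), 0.98 on the log2 scale above sham (SE 0.205, adjusted p = 0.00051 by edgeR).

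Nop56 (chr2:130274430-130279313) was the most abundant of the 3 on average. It stood at 5.46, 6.04, 6.05, 8.28 and 9.13 FPKM in sham and from 10.9 to 20.5 (median 14.3) in PHx24, with no overlap. Its mean rose from 6.99 ± 1.61 (SD, n = 5) to 15.3 ± 3.26 (n = 7), a difference of 1.15 on the log2 scale (SE 0.148, adjusted p = 2.3e-06 by edgeR). PHx48 ran from 9.42 to 12.5 (median 10.4), still above every sham library. Fbl changed less, with 0.52 at 24 h and 0.46 at 48 h on the log2 scale.

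**Figure D2:**
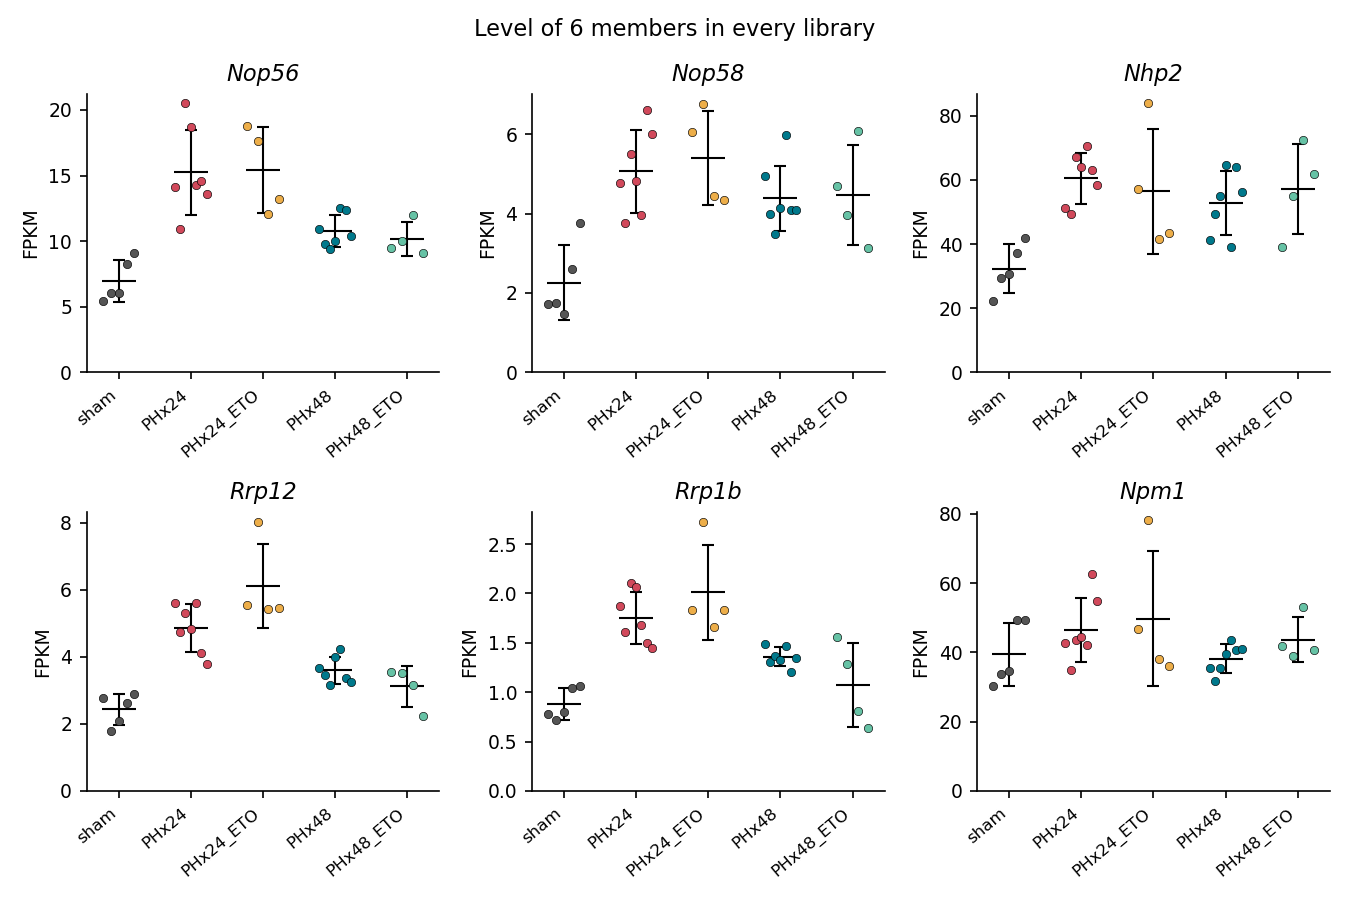
FPKM of 6 members in each library (points), with the mean (long bar) and SD (error bar) of each group; each vertical axis starts at 0. Nop56, Rrp12 and Rrp1b do not overlap between sham and PHx24, Nop58 and Nhp2 stay high in PHx48, and the sham and PHx24 values of Npm1 overlap.

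The box H/ACA group rose as a whole at 24 h. Nhp2, an RNA-binding core protein of the particle and the member with the highest mean level of all 42 (52.2 FPKM over 27 libraries, against 1.43 for Rrp1b at the other end), lies at chr11:51619735-51623714. It read 22.2, 29.3, 30.6, 37.3 and 42 FPKM in sham and 49.4 to 70.6 (median 62.9) in PHx24, with no overlap. Its log2 fold change was 0.93 (SE 0.178, adjusted p = 0.000224 by edgeR). In PHx48 it ran from 39.0 to 64.7 (median 54.9) and overlapped sham in 2 libraries, 0.73 above sham (adjusted p = 0.00196 by edgeR). That call at 48 h was lost without the 4 libraries with other tissue, where the log2 fold change was 0.53.

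Gar1, another core protein of the particle, had a log2 fold change at 48 h as large as at 24 h. It stood at 4.03, 6.68, 4.61, 5.13 and 7.56 FPKM in sham, at 9.15 to 12.6 (median 9.37) in PHx24 and at 7.64 to 13.8 (median 9.95) in PHx48. Both resected groups lay above every sham library. The log2 fold changes were 0.86 (SE 0.211) at 24 h and 0.95 (SE 0.211) at 48 h, with edgeR adjusted p-values of 0.00239 and 0.00094. Gar1 also had the largest spread within groups of all members, with a coefficient of variation of 28.5%. Nolc1, a nucleolar protein that carries the particles during their assembly, was called at both times (0.75 and 0.47). Dkc1 (dyskerin), the pseudouridine synthase itself, was called only at 24 h (0.50, and 0.18 at 48 h).

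Among the multifunctional nucleolar proteins, Ddx21, an RNA helicase, and Mybbp1a, a MYB-binding nucleolar protein, were called at both times. Ddx21 stood at 6.19, 6.46, 7.26, 7.99 and 10.2 FPKM in sham and at 10.7 to 13.3 (median 12.5) in PHx24, with no overlap, a difference of 0.70 on the log2 scale (SE 0.153, adjusted p = 0.000851 by edgeR). At 48 h it ran from 8.21 to 11.8 (median 10.2), and 4 of 7 libraries lay above sham. The call at 48 h (0.42, edgeR adjusted p = 0.0303) did not hold when any of sham 1, sham 2, sham 3, sham 4, PHx48 3, PHx48 4 or PHx48 5 was left out, with values of 0.35 to 0.41. It was also lost without the 4 libraries with other tissue, at 0.24.

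Ncl (nucleolin) and Npm1 (nucleophosmin), the abundant histone and RNA chaperones often used to mark the nucleolus, were not called. Npm1 read 30.3, 33.6, 34.6, 49.4 and 49.2 FPKM in sham and 35.0 to 62.5 (median 43.5) in PHx24. Sham 4 and sham 5 lay above 5 of the 7 PHx24 libraries. The log2 fold change was 0.26 with an interval of -0.06 to 0.58, and in PHx48, at 31.6 to 43.6 FPKM (median 39.4), it was -0.02. For Ncl the values were 0.33 and 0.11.

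In the processome the rise was uneven. Utp20, a large scaffold protein (chr10:88746607-88826804), read 1.70, 1.49, 1.83, 1.91 and 1.95 FPKM in sham, 2.29 to 3.30 (median 2.79) in PHx24 and 2.17 to 2.97 (median 2.47) in PHx48. Neither resected group overlapped sham, and the log2 fold changes were 0.67 (SE 0.111, adjusted p = 4.4e-05 by edgeR) and 0.51 (SE 0.111, adjusted p = 0.000818 by edgeR). Rrp9, a protein bound to the U3 ribonucleoprotein that guides the first cuts, rose at 24 h but not at 48 h. It stood at 3.71, 3.76, 3.68, 3.81 and 4.34 FPKM in sham, and at 4.72 to 7.67 (median 5.84) in PHx24 with no overlap. The log2 fold change was 0.64 (SE 0.115, adjusted p = 0.000108 by edgeR). In PHx48 it ran from 3.36 to 4.58 (median 4.31).

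Wdr43, a processome component and the most abundant of the role, read 6.22, 6.0, 5.50, 7.94 and 10.6 FPKM in sham and 7.25 to 9.75 (median 7.85) in PHx24. No PHx24 library exceeded sham 5, and its log2 fold change of 0.21 (interval -0.10 to 0.52) was not called. Heatr1, Wdr75, Utp15 and Noc4l were also called at 24 h, at 0.42, 0.24, 0.41 and 0.37. Noc4l was the other processome member called at 48 h, at 0.42. Utp14a, Utp18, Nop14 and Ddx10 were called at neither time, with values at 24 h of 0.08, 0.33, 0.28 and 0.14.

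Late 40S assembly included the smallest p-value of the members. Bysl (bystin), needed to finish the small subunit (chr17:47599331-47611492), stood at 3.86, 3.94, 4.42, 4.74 and 6.21 FPKM in sham. PHx24 ran from 7.71 to 9.88 (median 9.01) and PHx48 from 6.91 to 8.18 (median 7.01), both above every sham library. The log2 fold changes were 0.96 (SE 0.1, adjusted p = 1.35e-07 by edgeR) and 0.68 (SE 0.0994, adjusted p = 6.86e-06 by edgeR). Of the exonic bases of Bysl, 9.37% lie under the cyclin gene Ccnd3 on the opposite strand, and the library kit does not mark strand, so some reads may belong to either gene.

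Rrp12, a factor in the export and maturation of pre-ribosomes (chr19:41862852-41896153), read 2.76, 1.8, 2.10, 2.63 and 2.90 FPKM in sham, 3.79 to 5.62 (median 4.82) in PHx24 and 3.17 to 4.24 (median 3.45) in PHx48. It did not overlap sham at either time, with log2 fold changes of 1.01 (SE 0.144, adjusted p = 7.4e-06 by edgeR) and 0.58 (SE 0.143, adjusted p = 0.00242 by edgeR). Nob1, the endonuclease of the last cut, was called at both times (0.54 and 0.48). Ltv1, a 40S assembly factor and the most abundant of the role, read 6.30, 5.48, 8.57, 8.06 and 6.94 FPKM in sham and 8.11 to 10.2 (median 9.34) in PHx24. It was called at 24 h (0.40, edgeR adjusted p = 0.0055), but not at 48 h, when it ran from 6.60 to 9.30 (median 7.53). The call at 24 h was lost without the 4 libraries with other tissue, at 0.22.

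In 60S assembly, Rrp1b, a nucleolar protein related to a yeast processing factor (chr17:32036100-32062865), changed most from the lowest level. It read 0.775, 0.716, 0.803, 1.04 and 1.06 FPKM in sham, 1.45 to 2.11 (median 1.68) in PHx24 and 1.2 to 1.49 (median 1.35) in PHx48, with no overlap at either time. The log2 fold changes were 1.02 (SE 0.177, adjusted p = 7.83e-05 by edgeR) and 0.65 (SE 0.176, adjusted p = 0.00474 by edgeR). The later call was lost without the 4 libraries with other tissue, at 0.50. Rrs1, which brings the RNA of the small 5S particle into the large subunit, was called at both times (0.74 and 0.49), as were Bop1, Wdr12 and Noc2l at smaller values. Bop1, Pes1 and Wdr12 form the PeBoW complex, and Pes1 was called at 24 h only (0.30, and 0.06 at 48 h).

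Nop2, an RNA methyltransferase of the large subunit (chr6:125131909-125144753), stood at 5.63, 7.49, 6.94, 8.26 and 11.4 FPKM in sham and at 10.5 to 16.8 (median 12.8) in PHx24. The log2 fold change was 0.75 (SE 0.139, adjusted p = 0.000158 by edgeR), with 6 of 7 libraries above sham. In PHx48 it ran from 8.47 to 10.4 (median 9.28), inside the sham range. Nop16, a nucleolar protein and the most abundant of the role, read 16.2, 20.1, 19.0, 21.5 and 22 FPKM in sham and 17.1 to 22.8 (median 21.0) in PHx24, with a log2 fold change of 0.08 (interval -0.09 to 0.25). Gnl3 (nucleostemin) and Ebna1bp2 were also not called, at 0.27 and 0.24.

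At 48 h, 18 members were higher than in sham and none was lower, where 19.5% of all genes were called higher and 17.0% lower. The median log2 fold change was 0.25, and 35 of 42 values were positive. All 18 were among the 30 of the earlier time, and both comparisons use the same sham libraries. They included the whole box C/D group (Nop56, Nop58, Fbl), 3 of 4 box H/ACA genes and 3 of 4 late 40S genes, but none of the polymerase I group, 2 of 11 processome genes and 5 of 12 genes of 60S assembly. For 10 members every PHx48 library lay above every sham library, as it did for 11.6% of all genes. Without the 4 libraries with other tissue, 9 members were called (Nop56, Nop58, Gar1, Nolc1, Utp20, Noc4l, Bysl, Rrp12 and Rrs1), against 14.8% of all genes called higher. The count at 48 h thus rests in part on those libraries.

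**Figure D3:**
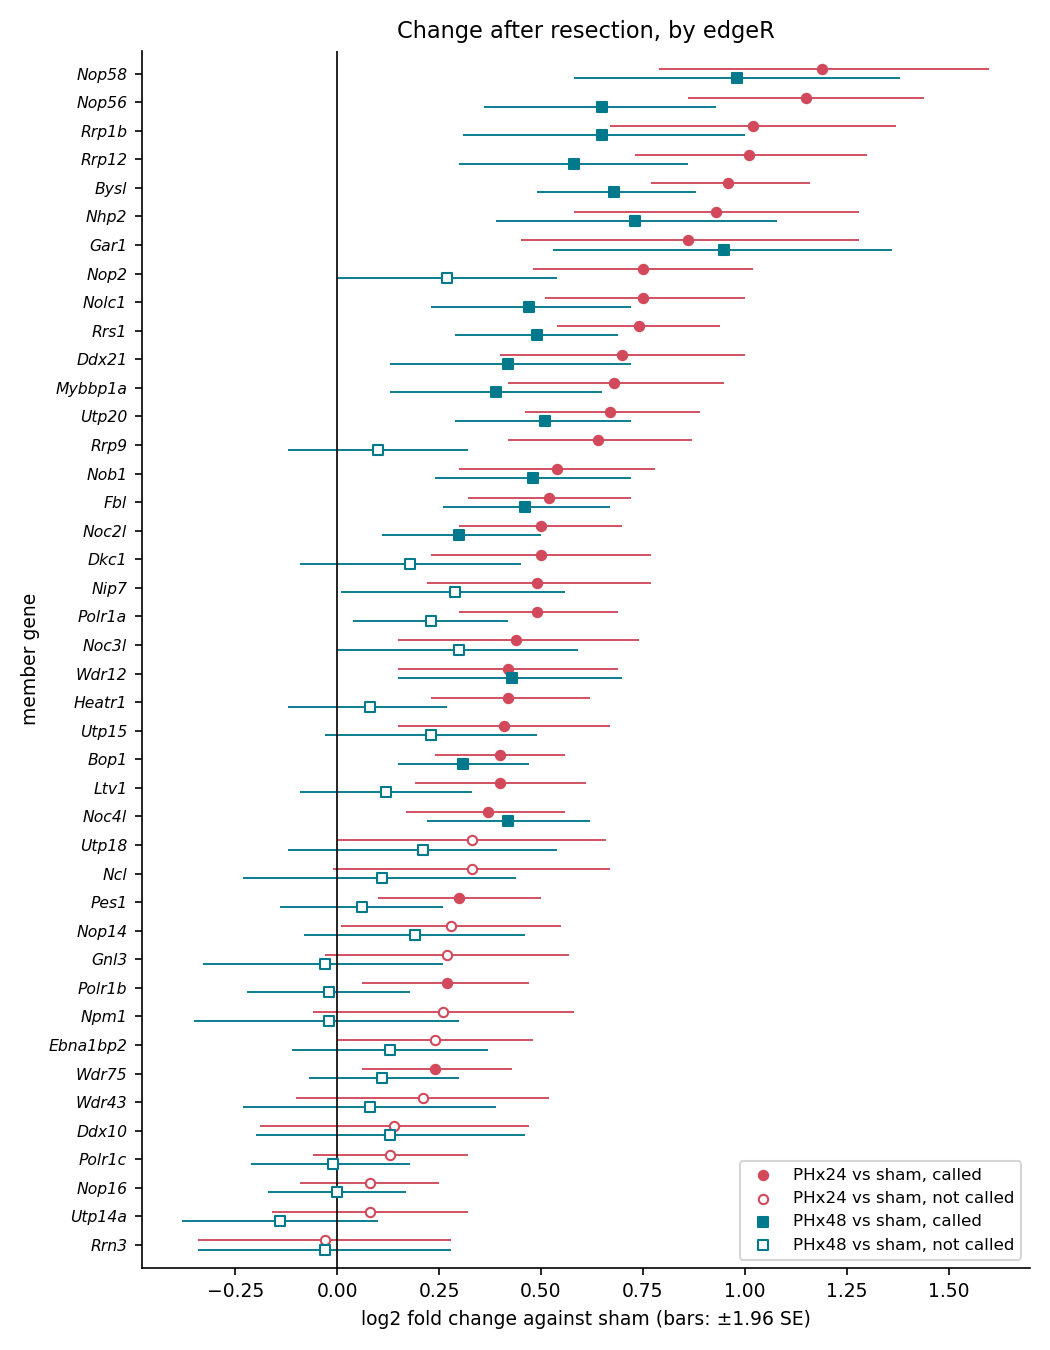
Log2 fold change of each member against sham at 24 h (circles) and 48 h (squares), with bars for the 95% interval; filled symbols passed an adjusted p of 0.05 (edgeR). Members are ordered by the value at 24 h: Nop58 and Nop56 are at the top, 38 of 42 squares lie to the left of their circles, and Rrn3 is at the bottom.

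Compared directly, 8 members were lower at 48 h than at 24 h and none was higher: Polr1a, Polr1b, Nop56, Rrp9, Heatr1, Bysl, Rrp12 and Nop2. Among all genes 5.41% were called lower and 6.19% higher in this comparison. All 8 had been called higher at 24 h, but both comparisons use the same PHx24 libraries, so the 2 calls are not independent. The median log2 fold change over the members was -0.21, with -0.01 over all genes. The largest falls were in Rrp9 (-0.54, SE 0.103, edgeR adjusted p = 0.000864), Nop56 (-0.50, SE 0.13, edgeR adjusted p = 0.0117) and Nop2 (-0.48, SE 0.124, edgeR adjusted p = 0.0121). For Rrp9, Heatr1 and Nop2 every PHx48 library lay below every PHx24 library, as for 2.04% of all genes. Without the 4 libraries with other tissue, 6 members were called lower, against 4.32% of all genes. The call of Rrp12 was among those lost, at -0.38. The highest Rrp9 value at 48 h was 4.58 FPKM and the lowest at 24 h was 4.72.

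This count depended on single libraries. It was 4 without PHx24 1 or PHx48 7, and 5 without PHx24 3, PHx24 4, PHx48 1 or PHx48 6. The call of Polr1a was lost on leaving out any of PHx24 1 to 5 or PHx48 1, 4, 5, 6 or 7, with values of -0.24 to -0.28 in those fits. Nhp2 (-0.20), Gar1 (0.09), Nop58 (-0.21) and Fbl (-0.06) were not called between the times. Their intervals include 0, and that of Gar1 reaches from -0.28 to 0.45.

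How the libraries are scaled mattered for the later time. Scaled to total counts, the median of all genes itself was 0.11 above sham at 24 h and 0.23 at 48 h, and the split of all genes was 24.0% higher and 10.1% lower at 24 h, and 34.6% and 7.97% at 48 h. The members called were then 32 at each time. On log2(TPM + 1) (TPM, a value scaled so that every library has the same sum) with limma, the median of all genes was at 0.19 and 0.32, the splits were 30.7% and 7.24% at 24 h and 46.0% and 5.29% at 48 h, and 39 and 38 members were called. From 24 to 48 h the splits were 11.7% higher and 2.59% lower with total counts and 13.7% and 2.13% on TPM, and 2 and 1 members were called lower. The members' median minus that of all genes changed little: 0.43, 0.44 and 0.39 at 24 h and 0.24, 0.25 and 0.23 at 48 h for the main scaling, total counts and TPM.

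With etomoxir at 24 h, 0 of 42 members were called in edgeR, where 2.9% of all genes were called in either direction. At an unadjusted p under 0.05 there were 8 members, all with a positive difference. Of the 12376 genes tested, 1235 were higher and 1166 lower at that threshold by edgeR, 19.4% in either direction. The share of the members was near that for either direction, but all 8 lay on 1 side. DESeq2 called 1 member (8 at an unadjusted p under 0.05) and limma on log2(FPKM + 1) called 0 (10). The member called by DESeq2 was Gnl3 (nucleostemin), with a log2 difference of 0.50 and an adjusted p of 0.048, against 0.0818 by edgeR. It read 5.75 to 7.85 FPKM (median 6.25) in PHx24 and 8.63, 13.1, 7.92 and 6.95 in PHx24_ETO, with 3 of 4 treated libraries above all untreated ones. Without PHx24_ETO 2, the log2 difference was 0.27 (adjusted p = 0.426 by edgeR).

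The 95% interval of the difference lay within 1.5-fold in either direction for 37 members and within 2-fold for all 42, and it included 0 for 32. Thus changes of the size seen between sham and PHx24 for Nop56 are outside these intervals, while smaller changes are not. The fitted log2 difference was positive for 36 of 42, with a median of 0.11. 1 library stood out. PHx24_ETO 2 lay above the whole PHx24 range for 34 members, and the other 3 libraries did so for 5, 7 and 7. The share of all genes above that range was not counted. Without PHx24_ETO 2, the median was 0.00 and 21 of 42 fitted differences were positive. Then 0 members were called in edgeR and 3 had an unadjusted p under 0.05. Of all genes, 0.65% were then called higher and 0.471% lower.

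**Figure D4:**
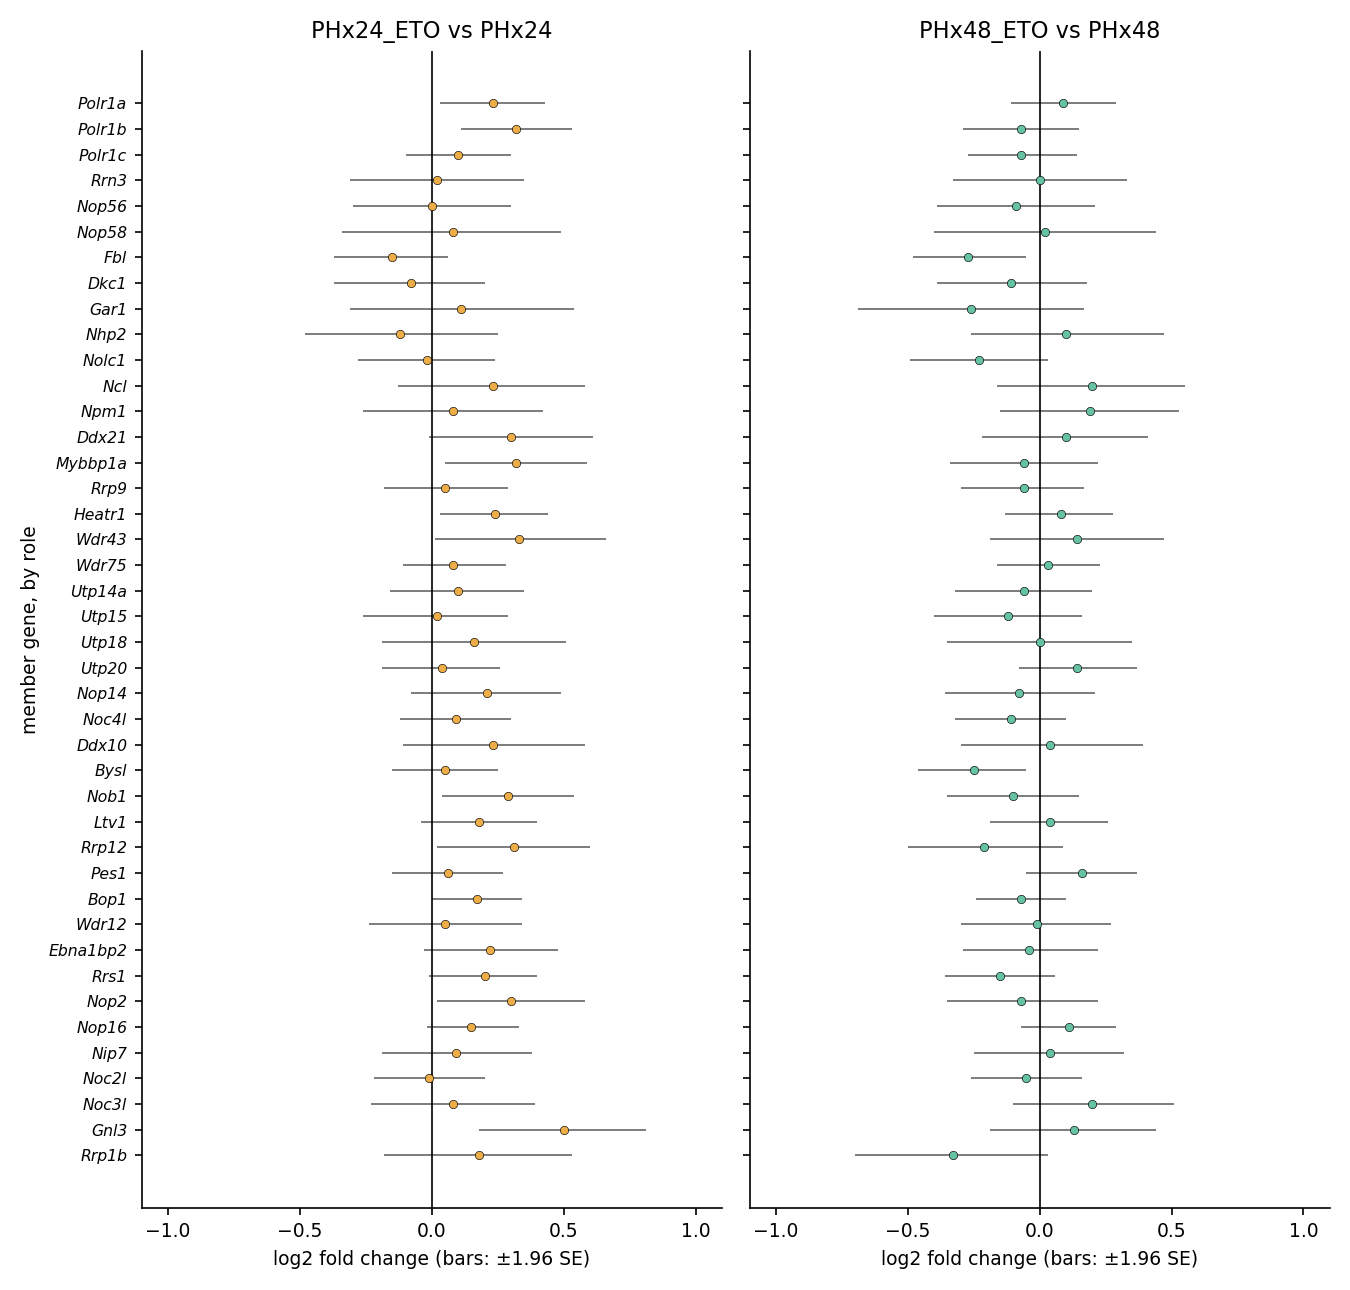
Log2 fold change of each member with etomoxir against resection alone, at 24 h (left) and 48 h (right), with bars for the 95% interval; members are ordered by role. None passed an adjusted p of 0.05 (edgeR). At 24 h the highest value is that of Gnl3 (0.50), and at 48 h the values run from Rrp1b (-0.33) to Noc3l (0.20).

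PHx24_ETO 2 held the highest value of all 27 libraries for 31 members, a count not made over all genes. Ddx21 was at 23.1 FPKM there, with 12.1, 13.1 and 12.2 in the other treated libraries, and Mybbp1a was at 33.7, with 17.6, 19.5 and 17.2. Nop58, which had led the changes after resection, was at 6.75 in that library and 6.05, 4.44 and 4.35 in the others. Rrs1 (22.9, with 24.8, 26.2 and 25.3 in the others) and Nolc1 (13.1, with 17.0, 12.1 and 13.4) were not raised there. The same library had 14.8 FPKM of Myc (3.01 to 3.12 in the other 3), 237.8 summed FPKM of adipocyte markers (23.3 to 35.6 in the other 3, and up to 236.1 in sham, in sham 1), and 0.0364 FPKM of the proliferation marker Mki67 with Ccnb1, a mitotic cyclin, at 0. Summed markers of other cells had lower ranges with etomoxir at 24 h, and their part in the result was not tested. Of 10 Kupffer cell and macrophage markers, 1 was called lower, and all 10 had a negative difference (9 at an unadjusted p under 0.05 by edgeR). Their sum was 79.7 to 141.3 FPKM in PHx24_ETO and 140.6 to 261.0 in PHx24, and the lowest of all 27 libraries was PHx24_ETO 2. The 5 erythroid genes tested all had a negative difference with an unadjusted p under 0.05 and none was called by edgeR, with sums of 90.2 to 174.9 and 200.4 to 452.1. Sinusoidal endothelial sums were 18.2 to 28.7 and 27.5 to 34.0. PHx24_ETO 2 was the lowest of the libraries at 24 h, while PHx48_ETO 2 was lower, at 15.1.

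Polr1a and Polr1b showed the opposite, a small difference shared by all treated libraries, and were singled out after their values were seen. Polr1a stood at 3.27, 3.06, 3.15 and 3.07 FPKM in PHx24_ETO, above the PHx24 maximum of 2.96. Polr1b stood at 4.65, 5.43, 4.71 and 4.84, above a maximum of 4.63. The log2 differences were 0.23 (adjusted p = 0.207 by edgeR) and 0.32 (adjusted p = 0.0993 by edgeR), and neither was called. The share of all genes with every treated library above every untreated one was not counted.

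At 48 h etomoxir gave 0 calls among the members in edgeR, and 0.21% of all genes were called in either direction. There were 2 members at an unadjusted p under 0.05, Fbl (-0.27) and Bysl (-0.25), where 8.11% of all genes passed. DESeq2 and limma also called 0, each with 2 at an unadjusted p under 0.05, and DESeq2 gave no adjusted p for 5 members. The median log2 difference was -0.04, which ran from -0.057 to 0.038 when a library of PHx48 or PHx48_ETO was left out. Of 42 intervals, 40 lay within 1.5-fold. Bysl read 6.68, 6.75, 6.28 and 4.96 FPKM in PHx48_ETO and 6.91 to 8.18 in PHx48. All 4 treated libraries were thus below the untreated ones, though the edgeR adjusted p was 0.546. The share of all genes separated in this way was not counted. PHx48_ETO 4 was the low library of PHx48_ETO: 21 members lay below the PHx48 range there, against 3 to 6 in the other 3 libraries. The share of all genes below that range was not counted. Summed skeletal muscle markers in PHx48_ETO 4 were at 85.9 FPKM, above the 75.8 of sham 2, and their part in the result was not tested.

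Whether etomoxir acted differently at the later time was tested directly, as the effect at 48 h minus that at 24 h, in the same edgeR fit. It called 0 members and 0.0162% of all genes. At an unadjusted p under 0.05 there were 5 members, where 8.6% of all genes passed. DESeq2 and limma called 0, with 5 and 6 at an unadjusted p under 0.05. The median was -0.16, and the lowest value was that of Rrp12 (-0.52, interval -0.93 to -0.11, edgeR adjusted p = 0.481). Without PHx24_ETO 2 the median was -0.02. The 2 etomoxir comparisons share no libraries with each other, but each shares its control libraries with the comparisons against sham.

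The members varied together from library to library. The Pearson correlation of each member's log2(FPKM + 1) with the mean of the other 41 over the 27 libraries, which share their scaling and differ in group, ran from -0.02 (Rrn3) to 0.93 (Ddx21), with a median of 0.77 and 39 members over 0.5. On deviations from the group means it ran from 0.01 (Rrn3) to 0.91 (Wdr43), with a median of 0.65. Rrs1 and Polr1a followed the others between groups (0.77 and 0.75) but hardly within them (0.15 and 0.20). Utp14a (0.36) and Nop16 (0.42) were the next lowest after Rrn3 over all libraries. These values are a description, with no test. The within-group coefficient of variation of the FPKM ran from 9.41% (Bop1) to 28.5% (Gar1).

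As 1 number per library, the mean log2(FPKM + 1) of the 42 members was 2.73 ± 0.163 (SD, n = 5) in sham. It was 3.14 ± 0.0776 for the 7 PHx24 libraries and 2.96 ± 0.0504 for the 7 PHx48 libraries. With etomoxir it was 3.26 ± 0.215 at 24 h and 2.94 ± 0.125 at 48 h, with 4 libraries each. All 7 PHx24 libraries were above all sham libraries. Sham 5, at 2.97, lay inside the PHx48 range of 2.91 to 3.06. The sham libraries spread widely, at 2.58, 2.62, 2.64, 2.82 and 2.97 from sham 1 to sham 5. Summed hepatocyte marker FPKM in the same libraries were 34357.6, 43444.3, 45859.4, 67280.3 and 73191.0, in the same order, while summed skeletal muscle markers were highest in sham 1 (4820.8) and pancreas markers in sham 2 (1032.6). Their part in the result was not tested.

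**Figure D5:**
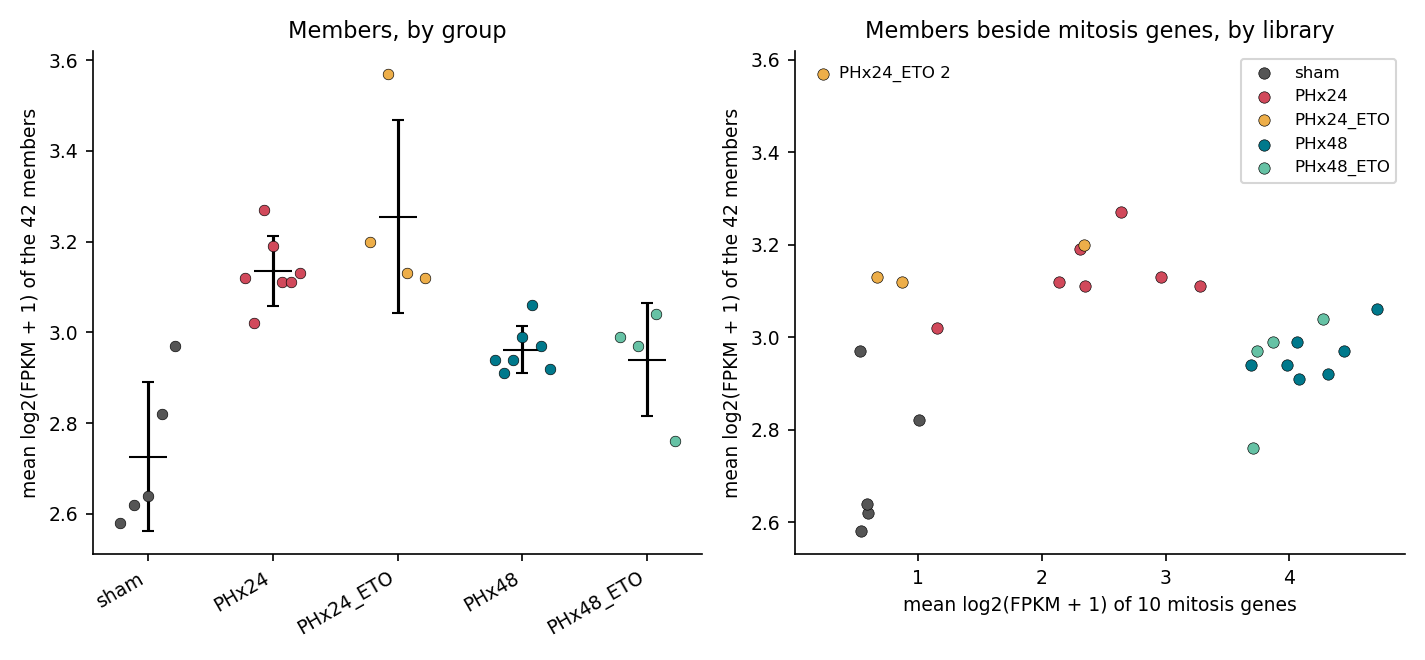
Left: mean log2(FPKM + 1) of the 42 members in each library (points), with group mean and SD. Right: the same values against the mean log2(FPKM + 1) of 10 mitosis genes in each library. The 7 PHx48 libraries have higher mitosis values than all PHx24 libraries and a lower mean member value (2.96 against 3.14), and PHx24_ETO 2 has the highest member value (3.57) with the lowest mitosis value (0.229).

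Set beside cell cycle genes, which were listed after the values had been seen, the members followed another course than the mitosis genes. The mean log2(FPKM + 1) of 10 mitosis genes, among them Mki67 and the kinase Cdk1, went from 0.652 ± 0.204 in sham (SD, n = 5) to 2.41 ± 0.68 in PHx24 (n = 7) and 4.18 ± 0.333 in PHx48 (n = 7). It was thus highest in the group where the members had come down. For 7 replication genes (Mcm2 to Mcm7 and Pcna) the means were 1.67 ± 0.0775, 4.11 ± 0.576 and 3.59 ± 0.258. Among the groups without etomoxir this was highest in PHx24, as was the mean of the members. In PHx24_ETO the mitosis values were 2.34, 0.229, 0.665 and 0.873, so that 3 of 4 treated libraries had little mitotic RNA. The member values of those 3 were 3.57, 3.13 and 3.12, within or above the PHx24 range of 3.02 to 3.27. Mki67 was at 0.346 and 0.726 FPKM in PHx24_ETO 3 and 4, close to the 0.258 to 0.529 of sham, and Mcm5 was at 8.89 and 10.9, with 0.592 to 1.38 in sham.

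The rest of the machinery was listed by role. Of 129 other biogenesis genes tested, 58 were called higher and 3 lower at 24 h (median 0.28, with 25 negative values), and 39 and 7 at 48 h (median 0.15, with 36 negative values). The difference from the members was not tested. At 24 h the counts were 5 higher and 1 lower of 17 for other polymerase I genes, 3 and 0 of 10 for other ribonucleoprotein genes, 22 and 1 of 46 for other small-subunit genes and 28 and 1 of 56 for other large-subunit genes. The largest were Polr1e, a polymerase I subunit (0.93, edgeR adjusted p = 5.87e-05), and Taf1d, of its promoter complex (0.65). In the ribonucleoprotein list they were Ruvbl1 and Ruvbl2, the paired ATPases of box C/D assembly (0.61 and 0.56). Pwp2, a processome scaffold, rose by 0.86. Utp14b rose by 0.97 (SE 0.287) but was low in sham, at 0.523 to 0.854 FPKM, so the size of its rise is uncertain. Eif6, which keeps the large subunit from joining early, rose by 1.13, and Mrto4 by 0.92.

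Rcl1, from the list of other small-subunit genes, went the other way. It was the gene with the largest fall at 48 h among the small-subunit genes, at -0.88 (SE 0.139, adjusted p = 2.05e-05 by edgeR), and was called lower at 24 h as well (-0.84). Its sham libraries read 67.7, 84.2, 121.2, 68.8 and 121.6 FPKM. Its PHx24 libraries ran from 40.1 to 59.9 and did not overlap sham.

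Noncoding genes that host small nucleolar RNAs in their introns were called higher for 6 of 12 tested and lower for none at 24 h (median 0.58), led by Snhg15 (1.02) and Snhg17 (0.97). For cytosolic ribosomal proteins, the end products that the factors assemble, 34 of 82 were called higher and none lower at 24 h (median 0.31), and 16 and none at 48 h (median 0.18). Of all genes, 19.1% were called higher and 15.8% lower at 24 h, and 19.5% and 17.0% at 48 h. The share called higher at 48 h was thus near that of all genes. Rpl41 rose by 0.77 at 24 h. Rps10 (0.89) was at 1.0 to 1.78 FPKM in sham, low for a ribosomal protein, and reads of ribosomal protein genes can be lost to near-identical copies, so its value is uncertain.

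Myc itself was variable. It read 1.46, 1.42, 4.78, 5.51 and 0.617 FPKM in sham, 3.21 to 9.70 in PHx24 and 1.66 to 11 in PHx48, so the groups overlapped. The log2 fold changes against sham were 0.92 (interval -0.06 to 1.89, edgeR adjusted p = 0.157) and 0.87 (adjusted p = 0.175), and were not called. Sham 5 had the lowest Myc and the highest member mean of the sham libraries. In the network of MYC partners and antagonists, 2 of 12 genes were called higher and 5 lower at 24 h. Mxd3 rose by 4.12 and Mxd4 fell by 0.97 on the log2 scale, the latter with an edgeR adjusted p of 1.98e-06. Mxd3 was near 0 in sham, at 0.029 to 0.204 FPKM, and at 0.699 to 2.64 in PHx24, so the size of its rise is uncertain. Mxd3 and Mxd4 encode proteins that compete with MYC for its partner MAX.

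Markers of other liver cells also moved in the comparisons with sham, and their part in the members' result was not tested. At 24 h both neutrophil genes tested, S100a8 and S100a9, were higher (summed neutrophil list 4.66 to 86.3 FPKM in PHx24, and 1.61 to 6.34 in sham), and Ly6g and Mpo had a mean under 0.1. Sinusoidal endothelial markers were lower for 3 of 8 genes at 24 h and 6 of 8 at 48 h, with summed ranges of 37.1 to 47.3 in sham, 27.5 to 34.0 in PHx24 and 18.6 to 33.8 in PHx48. Kupffer cell and macrophage markers were higher for 1 of 10 at 24 h, and at 48 h higher for 1 and lower for 4 (sums of 157.0 to 246.8 in sham, 140.6 to 261.0 in PHx24 and 88.6 to 264.8 in PHx48). Hepatocyte markers were higher for 1 and lower for 5 of 11 at 24 h, and their sum was 29096.9 to 38779.9 in PHx24. T and NK cell markers were too low to test, with Cd3d, Cd3e, Cd3g and Cd8a under 0.1 on average.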

How the data were processed

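Per the labels' protocols, RNA was isolated with TRIzol, and the NEBNext Ultra kit was used on its polyadenylated fraction. Tools named in the submitters' processing notes are CASAVA 1.8, fastp, HISAT2 2.0.5, featureCounts 1.5.0-p3 and, for the tests, DESeq2 1.20.0. The builds named there are GRCm38 and mm10. Annotation release and strand setting: not given in the sources used here. Each gene and library has a raw read count in the table deposited by the authors. The table also gives FPKM values computed by the authors. These equal the count over gene length and over a library size proportional to the median-of-ratios size factor, as the values show, so FPKM are scaled between libraries.

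Counts were tested with edgeR 4.0.16 (R 4.3.3), using TMM factors and a quasi-likelihood F test in 1 fit of all 27 libraries and 5 groups, with no covariate. Only genes reaching FPKM 1 in 4 or more libraries entered. P-values were adjusted by Benjamini and Hochberg over all 12376 genes and called under 0.05. The SE is the size of the log2 fold change divided by the square root of F, and intervals are at 95% by the normal approximation. The scripts were tested on simulated data. Alternatives were DESeq2 1.42.0, limma 3.58.1, other scalings and filters, a replicate block and leaving libraries out. Leaving out PHx24_ETO 2 was chosen after seeing the data.

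The members and lists were chosen with earlier results of these data known, so no p is given for a list. Values per library are given, by rule, for the largest called change per role at 24 h, the 3 largest called rises and falls in each other comparison and the most abundant member per role. Outside the members the rule names Myc and the 2 largest called changes of a list. Rrn3, Bysl, Gnl3, Polr1b, Mybbp1a, Rrs1 and Nolc1, given with values as well, and Rcl1 at 24 h were chosen after their values were seen. In GENCODE M21, 19 members share exonic bases with another gene, most of all Noc2l (20.86%), Utp14a (11.45%) and Bysl (9.37%), whose values are less certain.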

Additional observations from a re-analysis of the deposited data

Results flagged for a closer look

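The 16 members given by library under the rule, Myc and the members' mean were looked at, 90 groups in all. The highest and the lowest library of each group were compared with the nearest other by Dixon's test at the 95% level. The test flagged 9 values, in 5 libraries, and chance gives about 1 in 20 groups. Of the 9, 5 were in PHx24_ETO 2, the library with the highest values for most members. There, Ddx21 was at 23.1 FPKM (next highest 13.1), Rrp12 at 8.01 (5.55), Nop2 at 21.0 (15.0), Rrp1b at 2.72 (1.83) and Myc at 14.8 (3.12). The others were Gar1 at 12.6 in PHx24 3 (10.3), Rrp9 at 4.34 in sham 5 (3.81), Ltv1 at 9.30 in PHx48 5 (7.73) and Myc at 9.70 in PHx24 4 (5.40).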

How the results depend on the processing

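Ranges on leaving a library out cover the libraries of the groups compared. The count of members higher at 24 h was 24 to 31 when such a library was left out and 21 to 39 in the other settings. None was ever lower. Without PHx24_ETO 2, which is in the same fit, 33 were higher at 24 h and 11 were lower from 24 to 48 h. At 48 h the count of members higher was 15 to 20 when a library was left out. Scaling mattered most. With total counts, 32 members were higher at 48 h (median 0.487), and 2 were lower from 24 to 48 h (median -0.085). On TPM with limma, the medians were 0.577 at 24 h and 0.551 at 48 h (38 higher), and 1 was lower from 24 to 48 h (median -0.049). Against sham at 48 h, Polr1c turned from -0.01 to 0.32 on TPM, and Nop16 from 0.00 to 0.34 on TPM and 0.23 with total counts. Without the 4 libraries with other tissue, 9 were higher at 48 h. Members lower from 24 to 48 h numbered 14 when only those groups were fitted, 5 with no filter and 4 to 9 when a library was left out. DESeq2 called 1 member with etomoxir at 24 h. When a library was left out, the median etomoxir difference was 0.000 to 0.167 at 24 h and -0.057 to 0.038 at 48 h, so that its sign turned at 48 h, and the median difference between the etomoxir effects was -0.203 to -0.022. Of the values of named members under alternatives, 1078 kept direction and call, 35 lost the call, 20 gained it and 3 changed sign. The cause of these differences was not tested.

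Replicate numbers did not pair the libraries: by the correlation of deviations, 0 of 10 pairs of groups met the rule. With the replicate block, 29 members were higher at 24 h, 19 at 48 h, and 7 were lower from 24 to 48 h. The number of libraries, 4 with etomoxir at each time, sets the width of the intervals. Genes overlapping on opposite strands cannot be told apart.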
